A study of Macaca mulatta with 22 samples.

Results

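Mid-gene m6A peaks held within 1 exonic block were examined in infant rhesus macaques (Macaca mulatta), in tissue of the prefrontal cortex. They are the peaks whose midpoint lay from 0.2 up to, but not including, 0.8 of the way along the annotated gene, read 5′ to 3′ with introns included, and whose sequence was a single uninterrupted stretch of exon. Only peaks called and annotated in the same gene, in genes of at least 400 bases and outside the mitochondrial genome, could be placed. Of 10069 peaks in all 11 lists, 9215 could be placed and 1566 were members, in 703 genes. Members are compared below with 1764 mid-gene peaks that spanned at least 1 exon junction and with 2693 peaks of 1 block at positions of 0.8 or more, called 3′-end peaks here.

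The 11 animals were all at postnatal day 35, and each gave 1 library of RNA immunoprecipitated with an m6A antibody and 1 peak list. The 6 control animals were the males A and B and the females C, C1, C2 and C3. The 5 sevoflurane animals were the males D and S1 and the females F, S2 and S3, which had inhaled about 2.5 to 3% sevoflurane, a volatile general anaesthetic, in 4 h sessions at about postnatal days 7, 21 and 35. The labels name no strain, genotype or sham procedure. The tissue is bulk cortex, so fewer cells of a type and less RNA per cell cannot be told apart. RNA levels and read depth were not analysed here, so more methylation, more RNA of a gene and deeper sequencing cannot be told apart where a peak was found in some animals and not in others.

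N6-methyladenosine (m6A) is placed on nascent RNA by a methyltransferase complex built around METTL3 and METTL14, and YTH-domain proteins read it. Most of it lies near stop codons and in 3′ untranslated regions. Long internal exons also carry it, whereas the stretches next to splice junctions are largely bare, a pattern attributed to exclusion by exon junction complexes. A mid-gene peak within 1 exon is therefore the kind of site that a long internal exon, or a long terminal exon reaching far back into the gene, can provide. In neurons, m6A on transcripts of synaptic and cytoskeletal proteins has been tied to RNA transport, decay and local translation.

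Members were short stretches of exon that sat mostly in the 3′ part of the mid-gene window. Their exonic length ranged from 89 to 779 bases with a median of 121. The median position was 0.61, and 33.9% lay below 0.5. With the peaks of all lists pooled, the host genes had a median span of 18523 bases, against 31840 for hosts of junction-spanning peaks. In C1 the order was reversed, with 13057 bases for members and 10445 for junction-spanning peaks, and in every other animal members had the shorter median. The annotation gave an exon number and an exon count for 1239 members, those the authors classed as exon rather than untranslated region. Exon numbers in the files rose with the genomic coordinate on both strands, so they were turned round here for minus-strand genes and are counted 5′ to 3′. Of 1200 such members in transcripts of at least 2 exons, 71.8% lay in an internal exon, 23.8% in the last exon and 4.33% in the first. Among peaks classed as exon in such transcripts, the last exon held 76.8% of 1408 3′-end peaks and 4.21% of 1543 junction-spanning peaks. The classes were defined by position and number of blocks, and both bear on the exon in which a peak lies. The contrast between the last-exon shares is therefore a description and supports nothing further. Peaks classed as untranslated region are left out of these shares, so the shares do not hold for whole classes. The omission was uneven: 29.5% of plus-strand and 82.7% of minus-strand 3′-end peaks were classed as exon. On the plus strand, where the authors' untranslated-region classes match the direction of the gene, 73.8% of members were classed as exon, 19.2% as 3′ untranslated region and 7.05% as 5′ untranslated region.

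Members lay in transcripts with fewer exons than junction-spanning peaks did. The median number of exons per host transcript was 7.5 in A, 13.5 in B, 11 in C, 6.5 in C1, 11 in C2, 11 in C3, 11 in D, 9 in F, 12 in S1, 9 in S2 and 11 in S3. For junction-spanning peaks the animals' medians ran from 10 to 17. For 3′-end peaks with an exon count they ran from 10 to 12, inside the range of members, so members did not stand apart from that class. Members were lower than junction-spanning peaks in 11 of 11 animals, with a mean difference of -4.73 exons. The rule used the number of blocks, and a transcript of 1 exon cannot hold a junction-spanning peak, so this difference is a description and supports nothing further. Single-exon transcripts held 3.15% of members with an exon count. Transcripts of at most 3 exons held 20.1% of members, 4.15% of junction-spanning peaks and 11.9% of 3′-end peaks. Those with 20 exons or more held 29.9%, 38.6% and 22.9% in the same order.

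Members ranked between both other classes by enrichment. The fold enrichment is the authors' own value for each peak, and it was used here as a percentile within the animal's list, where 100 is the strongest peak. Over all lists, the fold enrichment of members had a median of 5.77 and ran from 2.11 to 172. In controls the median percentile of members was 51.8 in A, 50.5 in B, 54.1 in C, 48.5 in C1, 45.4 in C2 and 48.2 in C3. After sevoflurane it was 42.8 in D, 44.5 in F, 50.3 in S1, 49.7 in S2 and 47.7 in S3. Members therefore sat near the middle of every list.

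Members exceeded junction-spanning mid-gene peaks by 11.7 percentile points (95% interval 9.25 to 14.4; 11 of 11 animals; two-sided exact sign-flip permutation p = 0.000977, the smallest that 2048 sign flips can give with both tails, adjusted p = 0.00260 over 8 tests). The animals' differences ran from 6.41 to 21.1 points. Against 3′-end peaks their mean difference was -10.4 points (95% interval -13.3 to -7.49; 11 of 11 animals; exact sign-flip permutation p = 0.000977, adjusted p = 0.00260). No animal departed from this order of the 3 classes. The plot of enrichment ranks by class shows it. High fold values came in steps: of the 520 members above 10-fold, 469 (90.2%) had exactly the value of another peak above 10-fold in the same list, and the commonest such value differed between animals, from 10.5 in S3 to 35.9 in S1. Ranks among strong peaks are therefore coarse, and folds of different animals stand side by side below as descriptions, with no test between them.

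**Figure D1:**
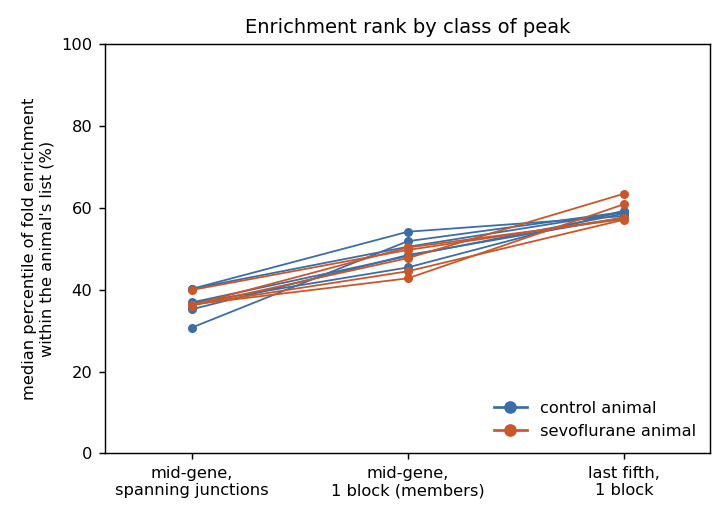
Median percentile of fold enrichment within the animal's own peak list (vertical axis, %) for mid-gene peaks spanning junctions, mid-gene peaks in 1 block (members) and 3′-end peaks in 1 block; each line is 1 animal, blue for control and orange for sevoflurane. All 11 lines rise from left to right, the mean difference of members being 11.7 points against junction-spanning peaks and -10.4 points against 3′-end peaks.

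Sevoflurane animals had more members than controls, in longer lists, and no difference in the share of members was detectable. Controls had 92 members in A, 71 in B, 89 in C, 60 in C1, 118 in C2 and 198 in C3. Sevoflurane animals had 174 in D, 172 in F, 133 in S1, 268 in S2 and 191 in S3. The control C3 lay above 4 of the 5 sevoflurane animals, and the other controls lay below all of them. The means were 105 ± 49.8 (SD, n = 6) and 188 ± 49.7 (SD, n = 5), a ratio of geometric means of 1.89 (95% interval 1.15 to 3.04) or a log2 difference of 0.92 (two-sided exact permutation test over all relabellings of the animals, p = 0.0281, adjusted p = 0.0450 over 8 tests). Genes with a member went with them. Controls had 98.7 ± 46.8 such genes (SD, n = 6) and sevoflurane animals 170 ± 38.5 (SD, n = 5), a ratio of 1.83 (95% interval 1.12 to 2.92; exact permutation p = 0.0281, adjusted p = 0.0450).

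The whole lists differed in the same way, 452 to 1210 peaks in controls and 852 to 1673 after sevoflurane. When every list was reduced to its 452 peaks of lowest p-value, the log2 difference in members was 0.05 (exact permutation p = 0.645). With A, B, C or C1 left out, the exact permutation p of the number was 0.0556, without S2 it was 0.0571 and without S3 0.0524, and the log2 difference stayed between 0.78 and 1.13.

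As a share of the peaks that could be placed, members made up 16.6% in A, 14.6% in B, 20.6% in C, 17.1% in C1, 18.3% in C2 and 17.6% in C3. After sevoflurane they made up 16.4% in D, 15.9% in F, 17.1% in S1, 17.1% in S2 and 16.8% in S3. The mean share of controls was 17.5 ± 1.98% (SD, n = 6), and that of sevoflurane animals 16.7 ± 0.524% (SD, n = 5). The difference was -0.817 percentage points (95% interval -2.90 to 1.17; exact permutation p = 0.439, adjusted p = 0.439). The sevoflurane animals all fell inside the range of the controls. The median exonic length of members averaged 128 ± 12.4 bases over controls (SD, n = 6) and 138 ± 15.9 over sevoflurane animals (SD, n = 5), a difference of 10.1 bases (95% interval -12.4 to 29.0; exact permutation p = 0.372). The median percentile of members differed by -2.76 points (95% interval -7.35 to 1.76; exact permutation p = 0.184, adjusted p = 0.245). Ranks from lists of different length are not a measure of change, and this value turned positive in lists of equal length.

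**Figure D2:**
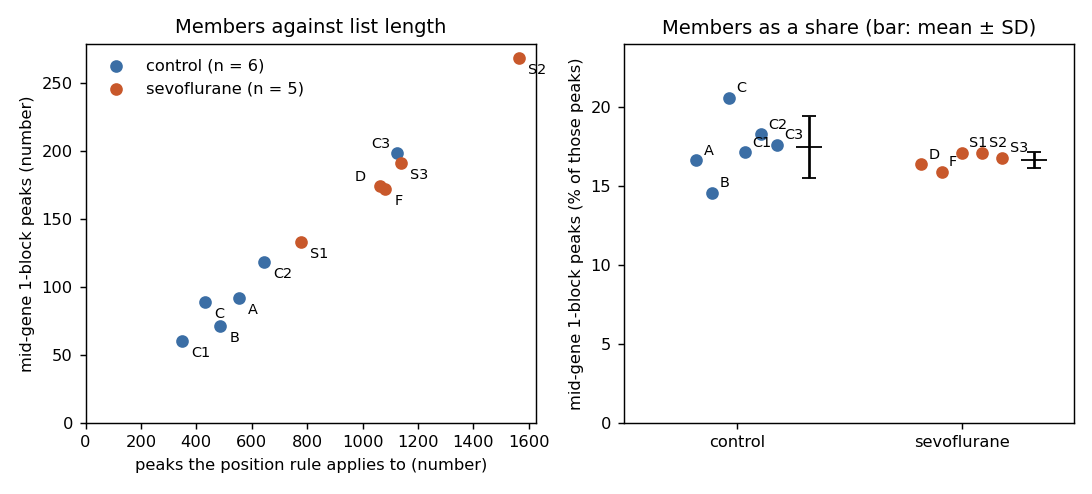
Left, mid-gene 1-block peaks (members, vertical axis) against all peaks that could be placed (horizontal axis), 1 point per animal; right, members as a percentage of those peaks, with the mean ± SD of each group as a black bar. Numbers rise with list length from 60 in C1 to 268 in S2, while the share stays between 14.6% and 20.6%.

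The difference in number went the same way in both sexes. It was 0.97 on the log2 scale in females (4 controls against 3; exact permutation p = 0.114) and 0.91 in males (2 against 2; exact permutation p = 0.333, the lowest that 6 relabellings allow). The female difference minus the male one was 0.05 (exact permutation of sex within treatment, 150 relabellings, p = 0.953). For the share, the corresponding difference was -2.95 percentage points (exact permutation p = 0.0933), with -1.81 points in females and 1.14 in males. The labels use single-letter names for some animals and numbered names for others. Among animals named by 1 letter, numbers differed by 1.05 on the log2 scale (3 controls against 2; exact permutation p = 0.100, the lowest that 10 relabellings allow). Among the numbered animals the value was 0.76 (3 against 3; exact permutation p = 0.30). The median percentile of members differed in opposite directions between the naming styles. It differed by -8.53 points among animals named by 1 letter (exact permutation p = 0.100) and by 1.88 points among the numbered animals (exact permutation p = 0.30).

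Most member genes were seen in few animals, and a small set recurred throughout. A member was found in 1 animal for 454 of the 703 genes, in 2 animals for 112 and in all 11 for 8. Overlapping peaks of all animals were joined into regions, and 844 regions held at least 1 member peak. In a typical animal 65.9 ± 10.4% of members (SD, n = 11) lay in a region that another animal also had, against 51.0 ± 15.0% of junction-spanning peaks and 69.8 ± 9.70% of 3′-end peaks (SD, n = 11 for each). Members exceeded junction-spanning peaks in 10 of 11 animals and 3′-end peaks in 2 of 11. This comparison was chosen after the values were seen and is given with no test. Members in recurrent regions also ranked higher and were longer. The median percentile was 39.4 for the 572 members whose region was found in 1 animal, 41.9 for 439 in regions of 2 to 5 animals, 57.9 for those in regions of 6 to 10 animals and 75.8 for 93 in regions of all 11. Their median exonic lengths were 118.5, 121, 180 and 241 bases in the same order. Regions were joined by at least 1 shared exonic base, so length bears on how readily peaks join. The 93 members came from 12 regions, and these values were not tested.

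Among regions with a member in every animal, ZBTB47 stood highest. ZBTB47 encodes a BTB-domain zinc finger protein, and its members lay in exon 2 of 6, at 99968189 to 99968967 on the minus strand of chromosome 2 (positions here are all in rheMac8). The fold enrichment was 53.2 at the lowest, 90.5 at the median and 143 at the highest in controls, and 54.1 in D, 172 in F, 46.4 in S1, 128 in S2 and 133 in S3. Its median percentile was 98.8, and 95.2 was its lowest in any animal. None of the other 6 regions with a member in every animal stayed so near the top of all 11 lists. The members of ZBTB47 were also long, with a median of 464 exonic bases and a maximum of 779, the longest of all members.

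NDRG2, a stress-responsive gene of the N-myc downstream-regulated family with high expression in astrocytes, had members in its last exon, 16 of 16, on chromosome 7 from 82250132 to 82250551 (minus strand). Fold enrichment was 5.37 at the lowest, 28.9 at the median and 43.9 at the highest in controls, and 22.0 in D, 34.0 in F, 12.0 in S1, 62.8 in S2 and 10.8 in S3, with a median percentile of 84.1. The groups overlapped, and the lowest percentile was 48.0, in C1.

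TUBB2B, a beta-tubulin of developing neurons, had members in the last of its 4 exons on chromosome 4 from 3128413 to 3128799 (minus strand). Fold enrichment was 8.61 at the lowest, 12.6 at the median and 22.7 at the highest in controls. It was 16.8 in D, 18.2 in F, 23.9 in S1, 49.3 in S2 and 76.9 in S3, with a median percentile of 75.8 over all animals. TUBB2B has a near-identical paralogue, TUBB2A, and how reads that fit both were assigned is not given in the sources used here. DYNLL2, a light chain of dynein and myosin V, had members in the last of its 3 exons on chromosome 16 from 31569094 to 31569452 (minus strand). Its fold enrichment was 5.62 at the lowest, 9.13 at the median and 21.2 at the highest in controls, and 9.15 in D, 34.0 in F, 7.97 in S1, 20.2 in S2 and 38.4 in S3. Groups overlapped for both genes.

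CALM3, one of the genes that encode calmodulin, carried members classed as 3′ untranslated region on chromosome 19 from 41942381 to 41942651 (plus strand). They lay at positions 0.778 to 0.783 of the gene, and those of DYNLL2 at 0.789 to 0.799, close to the 0.8 limit. The percentile of CALM3 ran from 45.8 in C to 75.8 in S3. Fold enrichment was 6.50 at the lowest, 9.54 at the median and 11.4 at the highest in controls, and 10.5 in D, 12.8 in F, 9.24 in S1, 12.3 in S2 and 11.7 in S3. TCTE1, a part of the dynein regulatory complex of motile cilia, had members in the last of its 4 exons on chromosome 4 from 45405939 to 45406239 (minus strand). Fold enrichment was 4.15 at the lowest, 5.55 at the median and 16.6 at the highest in controls, and 4.53 in D, 25.5 in F, 9.30 in S1, 38.3 in S2 and 21.4 in S3. SMIM10L2B, a small membrane protein gene, had members on chromosome X from 129093055 to 129093352 (minus strand). There, fold enrichment was 7.76 at the lowest, 12.8 at the median and 28.4 at the highest in controls, and 11 in D, 34.0 in F, 6.84 in S1, 63.9 in S2 and 9.32 in S3. The groups overlapped in each of these genes, and enrichment at single regions was not tested between groups because its steps differ between lists.

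**Figure D3:**
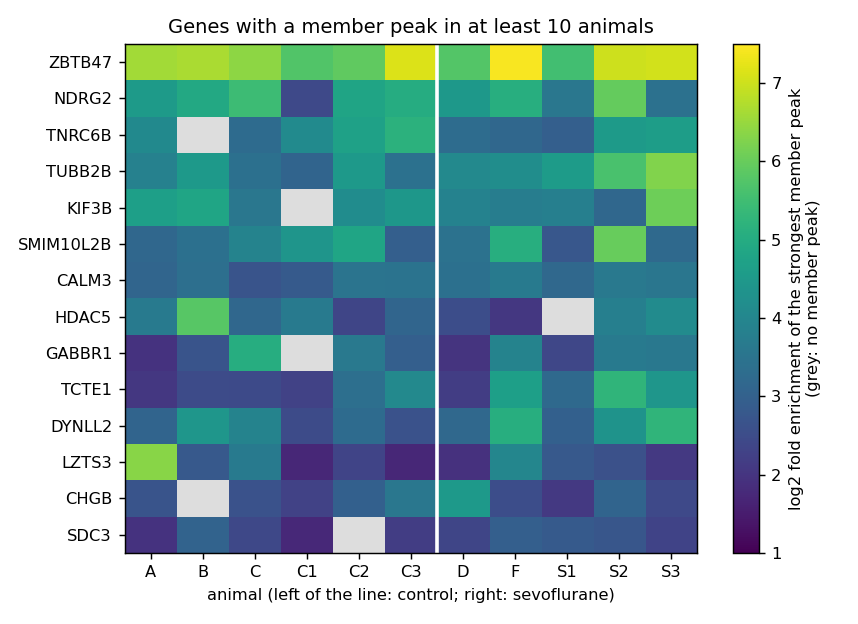
Log2 fold enrichment of the strongest member peak (colour) for the 14 genes with a member in at least 10 animals (rows, ordered by median percentile) in each of the 11 animals (columns, controls left of the white line); grey cells have no member peak. ZBTB47 is the brightest row, with folds from 46.4 to 172, and the row of CALM3 runs from 6.50 to 12.8.

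LZTS3 was the other gene with a member in all 11 animals, but over 5 separate regions. It encodes a postsynaptic protein that binds the SHANK scaffold. The region of it seen most often, at 36003519 to 36003878 on the minus strand of chromosome 10, was found in 5 controls and 3 sevoflurane animals. Another, from 36004696 to 36005054, was found in 3 controls and 4 sevoflurane animals. Its strongest member had a fold enrichment of 81.7 in A and between 3.31 and 15.9 in the other 10 animals.

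Another 6 genes had a member in 10 of 11 animals. KIF3B, a motor subunit of kinesin-2, lacked one only in C1 and reached folds of 12.0 to 28.3 in controls and 9.05 to 66.4 after sevoflurane, in exon 2 of 9. HDAC5, a class IIa histone deacetylase, lacked a member only in S1, and its peaks lay in exon 12 of 26 on chromosome 16 from 49951881 to 49952150 (minus strand). GABBR1, the subunit of the metabotropic GABA-B receptor that binds GABA, lacked one only in C1, with its peaks in exon 22 of 23. The secretory granule protein gene CHGB lacked one only in B, and the heparan sulfate proteoglycan gene SDC3 only in C2, with members in exon 4 of 5 and exon 3 of 3. TNRC6B lacked one only in B. Apart from HDAC5, found in 6 of 6 controls and 4 of 5 sevoflurane animals, each of these genes had a member in 5 of 6 controls and 5 of 5 sevoflurane animals.

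TNRC6 proteins bind Argonaute and carry out silencing by microRNAs, and all 3 genes of the family had members in comparable places. TNRC6B had 15 member peaks in exons 6 and 7 of 24, TNRC6A had 8 in exon 6 of 25 and TNRC6C had 12 in exon 5 of 23. They were found in 10 animals for TNRC6B and in 3 controls and 4 sevoflurane animals for each of TNRC6A and TNRC6C. The commonest TNRC6B region lay on chromosome 10 from 82278133 to 82278731 (plus strand), that of TNRC6A on chromosome 20 from 23507232 to 23507712 (plus strand) and that of TNRC6C on chromosome 16 from 71861607 to 71862057 (plus strand). The median percentiles of the strongest members were 76.7, 87.7 and 67.5 in that order. Of the PRRC2 family, PRRC2A had members in 7 animals, PRRC2C in 6 and PRRC2B in 0. Both families were picked out after their values were seen.

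Several genes held more than 1 separate member region. ELFN2, a synaptic leucine-rich repeat protein, held 6, LZTS3 and SLURP2 held 5 each, and PLEC and TNKS1BP1 held 4 each. The ELFN2 regions lay between 79367229 and 79370912 on chromosome 10 (minus strand), in 9 animals, and the one found most often, from 79368486 to 79368965, was in 4 controls and 3 sevoflurane animals with folds of 6.29 to 35.0. Another, from 79370762 to 79370912, was in 0 controls and 3 sevoflurane animals. SLURP2 overlaps the neighbouring gene LYNX1 in the annotation, which the files name for the same peaks, so its 9 peaks cannot be divided between them. PLEC, the cytoskeletal linker plectin, had 17 member peaks in exons 15 to 32 of 33, and its main region was found in 5 controls and 5 sevoflurane animals at folds of 2.31 to 5.76. PLEC ranked low, with a median percentile of 28.3 for the strongest member of each animal and 14.3 over all 17 member peaks.

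Regions were compared between the groups by the number of animals in which any peak overlapped them. Of 249 regions with a member found in 2 to 9 animals, 5 (2.01%) had a higher frequency in sevoflurane animals with p under 0.05 (Fisher's exact test, unadjusted), against 1.5% of all 1265 regions tested. The members' count is thus near the background. With 1 animal left out, the members' count ran from 5 of 239 without C1 (22 of 1211 for all regions) to 14 of 238 without S1 (68 of 1181 for all regions). It was 8 of 238 without A or C (25 of 1207 and 23 of 1208 for all regions), 10 of 216 without C3 (43 of 1135), 11 of 228 without F (42 of 1125) and 12 of 224 without S3 (62 of 1151). More often in controls, there were 0 member regions and 0.0% of all regions. After Benjamini-Hochberg adjustment over all tested regions the count was 0 for members and 0.0% for all regions, and the smallest adjusted p among members was 0.610 (Fisher's exact test). The share of regions found in a larger fraction of sevoflurane than control animals was 83.1% for members (207 of 249) and 84.7% for all regions. The sevoflurane lists were longer on average, and whether that bears on these shares was not tested.

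**Figure D4:**
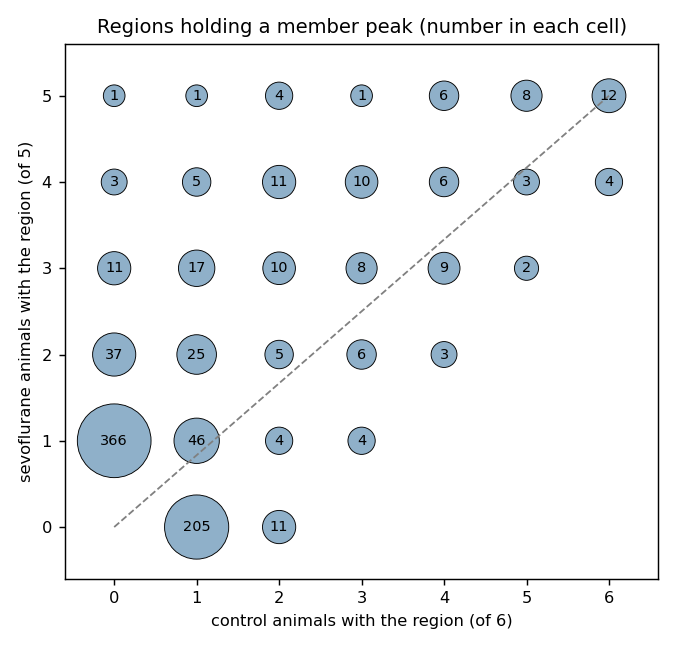
Number of regions holding a member peak (number in each circle, circle area growing with it) by the number of control animals (horizontal axis, of 6) and sevoflurane animals (vertical axis, of 5) in which the region was found; the dashed line marks equal fractions. Regions found in 1 animal make up 366 in sevoflurane and 205 in control animals, 12 regions were found in all 11, and 1 region was found in 5 sevoflurane animals and 0 controls.

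DNMT3A, which encodes a de novo DNA methyltransferase, held the region with the smallest p. Its members lay in exon 4 of 23 on chromosome 13 from 25528176 to 25528355 (minus strand). Fold enrichment was 3.14 in D, 4.39 in F, 3.32 in S1, 5.86 in S2 and 4.23 in S3, and no control had a peak there. The S2 peak spanned a junction and was not a member. The region was thus in every one of the 5 sevoflurane animals and in 0 of 6 controls, with p = 0.00216 by Fisher's exact test, its lower limit here, and an adjusted p of 0.610. Its median percentile was 33.9, in the lower part of the lists. At a peak p-value of at most 1e-05 it was in 4 sevoflurane animals and 0 controls (Fisher's exact p = 0.0152), and in lists of equal length in 2 and 0 (Fisher's exact p = 0.182).

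CHGB, chromogranin B of dense-core vesicles, had another member region, found in all 5 sevoflurane animals and in the control C3 (p = 0.0152 by Fisher's exact test, adjusted p = 0.610). It lay in the same exon as the common one, on chromosome 10 from 38779608 to 38779938 (plus strand). Fold enrichment was 3.23 in C3, 5.03 in D, 2.59 in F, 3.40 in S1, 3.09 in S2 and 2.24 in S3, and its median percentile was 18.9. It kept those 5 sevoflurane animals and 1 control at the stricter peak p-value and in lists of equal length (Fisher's exact p = 0.0152 in each). The other CHGB region, from 38780357 to 38780747, was in 5 controls and 5 sevoflurane animals.

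The other 3 such regions were each in 4 sevoflurane animals and no control (p = 0.0152 by Fisher's exact test and adjusted p = 0.610 for each). In TNKS1BP1, a tankyrase-binding protein gene, the region lay in exon 6 of 11 on chromosome 14 from 16341228 to 16341467 (plus strand), with folds of 6.87 in D, 5.45 in F, 5.17 in S2 and 5.13 in S3. In CREBZF, a bZIP transcription regulator, it lay in exon 1 of 2 on chromosome 14 from 78248841 to 78249170 (minus strand), with folds of 4.79 in D, 4.54 in F, 4.39 in S1 and 2.87 in S2. In PHF23, a PHD finger gene, it lay in exon 4 of 5 on chromosome 16 from 7212785 to 7212994 (minus strand), with folds of 2.46 in F, 3.99 in S1, 3.51 in S2 and 3.17 in S3. At the stricter peak p-value these regions were in 3, 2 and 2 sevoflurane animals and no control (Fisher's exact p = 0.0606, 0.182 and 0.182), and in lists of equal length in 2, 1 and 1.

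A further 4 regions were in all 5 sevoflurane animals and in 2 controls (p = 0.0606 by Fisher's exact test), 1 of them in a gene with no name here. The neighbouring TNKS1BP1 region from 16341736 to 16342185 was among them, with folds of 17.7 in B, 7.11 in C3, 33.0 in D, 22.7 in F, 3.30 in S1, 9.23 in S2 and 28.0 in S3. USP35, a deubiquitinase gene, had the region in C and C3 and in every sevoflurane animal, with folds from 3.97 in F to 49.8 in C3. TMEM132D, a neuronal transmembrane protein gene, had it in C and C2, with folds from 2.69 in D to 6.39 in S2. In lists of equal length 4 sevoflurane animals and 2 controls kept the TNKS1BP1 and USP35 regions, and 2 and 2 kept that of TMEM132D.

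TNKS1BP1 also held one of the regions found in controls alone, from 16340629 to 16341168, in C2 and C3. No member region was in more than 2 controls with 0 sevoflurane animals (Fisher's exact p = 0.455 for 2 and 0). The named ones, by rank, were SPSB3 in A and C2, TTLL3, CCDC112 and TRANK1 in C2 and C3, CRACDL in C and C3, and GOLGB1 and ZSWIM8 in B and C2. Among them SPSB3, an adaptor of a ubiquitin ligase, had the highest median percentile, with folds of 27.2 in A and 22.7 in C2. GOLGB1, the Golgi tether giantin, had 17.7 in B and 6.62 in C2. Counted by gene, GOLGB1 had members in 4 controls and 0 sevoflurane animals, over 4 separate regions. The reverse, 0 controls and 4 sevoflurane animals, held for CREBZF, DNMT3A, PHF23 and ANKRD11, and these counts by gene were not tested.

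Long internal exons are well known carriers of m6A. Of 24 genes with a long internal exon or a single long exon, 8 had a member, and controls had exactly 1 such gene each, against 2.60 ± 1.34 per sevoflurane animal (SD, n = 5). BOD1L1, a large protein of the replication stress response, had members in exon 10 of 26 in 3 controls and 2 sevoflurane animals, at a median percentile of 30.0. The homeobox gene ZFHX3 had them in exon 2 of 11 in 1 control and 3 sevoflurane animals, at 87.4. The histone methyltransferase gene KMT2A had them in exon 27 of 36 in 0 and 2 animals. Of 5 tested regions on this list, 0 reached p under 0.05 by Fisher's exact test in either direction.

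Of 50 genes with 1 coding exon, 10 had a member. The potassium channel gene KCNA4 had one in 2 controls and 2 sevoflurane animals at a median percentile of 65.5. AMIGO1, a neuronal adhesion gene, had 3 members in 3 separate regions, 1 in a control and 2 after sevoflurane. Zinc finger genes contributed 22 hosts of the 83 with any peak, 2.50 ± 1.97 in the average control (SD, n = 6) against 5.40 ± 2.51 after sevoflurane (SD, n = 5). After ZBTB47, the most frequent was ZBTB22, in exon 2 of 2, in 1 control and 4 sevoflurane animals. The strongest ZBTB22 member of each animal had a median percentile of 88.2.

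Of 23 genes of the m6A machinery, 4 had a member, 2.00 ± 0.632 in the average control (SD, n = 6) against 1.60 ± 0.548 after sevoflurane (SD, n = 5). ZC3H13, a subunit of the methyltransferase complex, had members in exon 12 of 19 on chromosome 17 from 25153025 to 25153533 (minus strand), in 6 controls and 3 sevoflurane animals. These lay at positions 0.794 to 0.795, close to the 0.8 limit. The folds were 3.02 at the lowest, 4.22 at the median and 7.43 at the highest in controls and ran from 3.82 to 8.89 after sevoflurane, with a median percentile of 35.7. Counting junction-spanning peaks that overlap it, 10 animals had the region. The reader-associated protein gene PRRC2A had members in exon 16 of 31 on chromosome 4 from 32497516 to 32497845 (plus strand), in 4 controls and 3 sevoflurane animals. Its folds ran from 3.40 to 56.6, with a median percentile of 87.3. The nuclear reader YTHDC1 had members in exon 4 of 17 in 1 control and 2 sevoflurane animals, and the cytoplasmic reader YTHDF3 in 1 control. On this list, 0 of 2 tested regions reached p under 0.05 by Fisher's exact test.

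Of 38 synaptic scaffold and release genes, 8 had a member, 1.33 ± 1.03 in the average control (SD, n = 6) against 3.20 ± 1.10 after sevoflurane (SD, n = 5). VAMP2, the vesicle SNARE synaptobrevin, had members in its last exon in 2 controls and 3 sevoflurane animals. DLGAP3, a postsynaptic scaffold, had them in exon 3 of 12 in 0 controls and 3 sevoflurane animals, at folds of 5.75 to 17.9. Among 5 tested regions, 0 reached p under 0.05 by Fisher's exact test, and 5 of 5 were in a larger fraction of sevoflurane animals, against 84.7% of all tested regions.

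Of 29 chromatin regulators, 9 had a member, 1.33 ± 0.516 in the average control (SD, n = 6) against 3.00 ± 1.73 after sevoflurane (SD, n = 5). HDAC5 was the most frequent. Its folds were 12.6 in A, 56.6 in B, 8.98 in C, 12.9 in C1, 5.13 in C2, 8.75 in C3, 5.81 in D, 4.16 in F, 14.1 in S2 and 17.5 in S3. Of 4 tested regions on this list, 1 was more often found after sevoflurane at p under 0.05 by Fisher's exact test, against 1.5% of all tested regions. It was that of DNMT3A, with an adjusted p of 0.610 (Fisher's exact test). Of 37 cytoskeleton and microtubule genes, 9 had a member, 2.00 ± 0.894 in the average control (SD, n = 6) against 2.80 ± 0.837 after sevoflurane (SD, n = 5). Beyond TUBB2B, the beta-spectrin gene SPTBN4 had members in 3 animals, and 0 of 4 tested regions reached p under 0.05 by Fisher's exact test. The numbers of hosts per animal on these lists were not tested. All host genes together averaged 98.7 per control and 170 per sevoflurane animal.

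Markers of cell types were seldom hosts. The excitatory neuron factor NEUROD2 had members in its last exon in 4 controls and 3 sevoflurane animals, at folds of 2.63 to 7.16 and a median percentile of 15.8. NEFM was a host in 1 control, MBP and OLIG2 in 1 sevoflurane animal each, and PTPRZ1 in 3 controls in 3 separate regions. Of 9 inhibitory neuron, 8 astrocyte, 8 microglial and 9 vascular and blood markers, 0 had a member. Of 14 small housekeeping noncoding and ribosomal genes, 0 had a member or any other peak. Peak lists do not give RNA levels, so the labelled tissue can be checked only by which markers carried a peak of any kind: 4 of 9 general neuronal, 2 of 7 excitatory, 3 of 9 inhibitory, 2 of 8 astrocyte, 3 of 8 oligodendrocyte, 2 of 4 precursor, 1 of 8 microglial and 0 of 9 vascular and blood markers did.

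Chromosome 10 held more of the members than of other peaks. It carried 190 of 1566 members (12.1%), against 5.70% of all peaks that could be placed, 3.74% of junction-spanning peaks and 6.13% of 3′-end peaks. In controls the share of members on it was 15.2% in A, 11.3% in B, 10.1% in C, 16.7% in C1, 11% in C2 and 10.1% in C3. After sevoflurane it was 12.6% in D, 11% in F, 14.3% in S1, 10.8% in S2 and 14.1% in S3. It was higher than the share of junction-spanning and of 3′-end peaks in 11 of 11 animals, and the groups overlapped. By gene, 55 of 703 hosts (7.82%) were on chromosome 10, against 5.13% of all genes with a placed peak. Recurrent hosts there had many peaks each: LZTS3 had 18, CHGB and RRBP1 16 each, ELFN2 and TNRC6B 15 each, CBX6 13 and KIF3B 10. The chromosome was singled out after the values were seen, as the highest of 21, so no test is given. Membership depends on the annotated exons, and those of chromosome 10 were not compared with those of other chromosomes. The next highest ratios of member share to the share of all placed peaks were 1.34 for chromosome X and 1.33 for chromosome 4, against 2.13 for chromosome 10, and the lowest was 0.497 for chromosome 12.

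**Figure D5:**
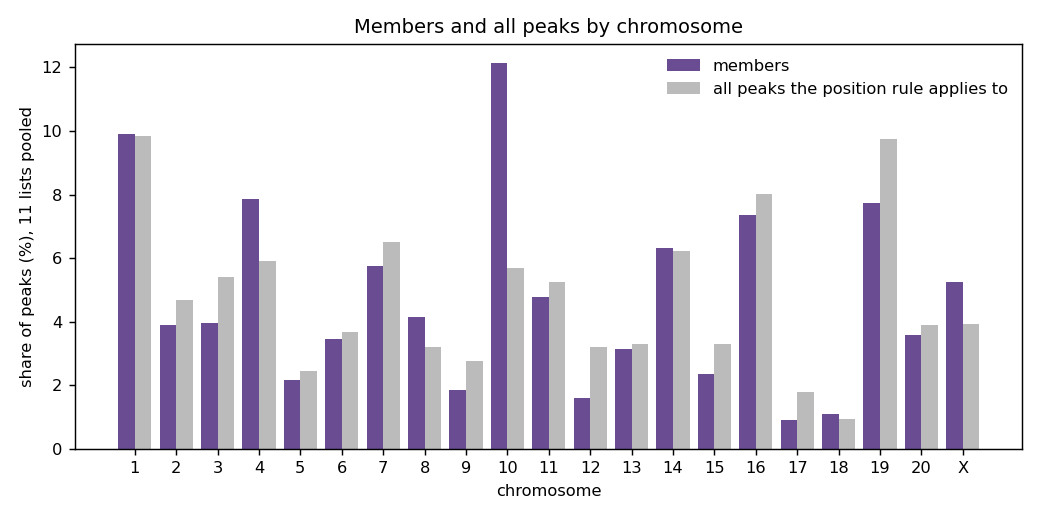
Share of members (purple) and of all peaks that could be placed (grey) on each chromosome, in percent, with all 11 lists pooled. Chromosome 10 holds 12.1% of members and 5.70% of all peaks, and no other chromosome departs by as many percentage points.

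At the limits of the rule, the member nearest to 0.2 had a position of 0.202 (an unnamed gene, in D, 59.4-fold), and the nearest peak outside had 0.199 (ATR, in C2, 11.4-fold). At 0.8, the nearest member was in RUSC2 (S3, 3.14-fold, at 0.7997), and the nearest peak outside was in NES (S2, 55.4-fold, at 0.8003). The shortest host gene measured 432 bases, and the longest gene just outside the length limit, LOC706087, measured 399.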

How the data were processed

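Each of the 11 immunoprecipitated samples has 1 deposited peak table, made by the authors per animal. Its columns, per the file headers, give the authors' p-value, 2 negative scores on the log10 scale (for the p-value and for the false discovery rate), a fold enrichment (a ratio), exonic blocks and an annotation. Positions are in rheMac8, and reads were handled with HISAT2 2.1.0, StringTie, cutadapt and Trim Galore 0.5.0, per the submitters' processing notes. Which program called peaks, and whether it used the input libraries, is not given in the sources used here; those libraries were not analysed here. The largest p-value of a member was 0.00098. Read totals are not part of the tables, so depth is unknown, no counting interval was computed, and the number of animals sets the precision.

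Starts count from 0 and were printed plus 1. Gene position used the ends of the annotated transcript (238 of 3626 genes had more than 1). Of 703 host genes, 619 were named by Ensembl identifier, 60 by Entrez identifier and 4 by the file's symbol, and 20 have no name here. Peaks of all lists sharing at least 1 exonic base on a strand were joined into 5155 regions.

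Groups followed the labels, with the animal as replicate. Tests were two-sided exact permutation over all relabellings of the animals and sign flips within animals (2048), with 95% intervals by inversion. Benjamini-Hochberg adjustment was over 8 tests. An exon-count comparison, given as a description because the block rule bears on it, was among them. Its small p lowers most of the other adjusted p-values. Regions in 2 to 9 animals had Fisher's exact test (Python 3.11.15, scipy). The tests were tried on simulated data. The members, gene lists and tests were chosen with earlier results of these data known.

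Named were genes with a member in every animal, up to 8 regions in each direction by Fisher's p, up to 3 members of each list by number of animals, the 5 genes with most regions, and peaks at the rule's limits. A few genes that this rule names are not reported here. Genes with a member in 10 animals, the TNRC6 and PRRC2 families and chromosome 10 were added after seeing values. Alternatives were a peak p-value of at most 1e-05, equal list length, autosomes, positions 0.3 to 0.7, genes of at least 2000 bases, the annotation column's gene, 50% reciprocal overlap, no filter on the number of animals, each sex, naming style, replicate number and each animal left out.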

Additional observations from a re-analysis of the deposited data

How the results depend on the processing

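The higher rank of members than of junction-spanning peaks and their lower rank than 3′-end peaks kept their direction and an exact p under 0.05 in all 17 alternatives each, and the difference in exon counts kept its direction in 17. The number of members and of host genes kept their direction in 21 alternatives and lost significance in 9. With lists of equal length the log2 differences were 0.0503 and 0.0468, in females alone 0.97 and 0.90, and in males alone 0.91 and 0.89. With each animal left out they ran from 0.78 to 1.13 and from 0.72 to 1.08. The difference in share reversed to 0.0874 percentage points with equal lists, to 0.158 at positions 0.3 to 0.7 and to 1.14 in males. That in percentile reversed to 0.584 at the stricter peak p-value and to 1.77 with equal lists. In full, 5 of 249 member regions were found more often after sevoflurane. The count was 2 of 167 at the stricter p-value (CHGB and DNMT3A) and 2 of 129 with equal lists (CHGB and ZBTB22). With an animal left out it was 5 to 14, where smaller groups also change which splits reach p under 0.05 by Fisher's exact test. It was 10 of 216 without C3, 8 of 238 without A or C, 11 of 228 without F, 14 of 238 without S1 and 12 of 224 without S3. Over all regions the counts were 19 of 1265 in full, 11 of 867 at the stricter p-value, 4 of 615 with equal lists and 22 to 68 with an animal left out. The causes of these moves were not tested, beyond that equal lists hold fewer peaks. C1 to C3 and S1 to S3 share only numbers, C1 being female and S1 male. With the replicate block the log2 difference in number was 0.92 (exact permutation p = 0.0250, 80 relabellings) and no call changed. The GGACT motif comparison was not run, since no genome was used here. Depth is unknown, so a missing peak is not an absent mark.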
